A study of Homo sapiens with 3 samples.

Results

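The HOX genes described here are the 39 genes of the HOXA, HOXB, HOXC and HOXD clusters, found among 33538 features by their symbols, a cluster letter followed by a paralog number. UMIs (counted RNA molecules) of 21 of the 39 were found in any barcode and of 19 in the cells kept for study. The source was HUES8, a human embryonic stem cell line in long use, which the authors differentiated by a published protocol towards glucagon-producing alpha cells of the islet (SC-alpha). The series holds 1 group of 3 replicate libraries with no second condition, so the comparisons run between cell classes within each library. Whether the replicates were separate differentiations is not labelled, and p-values then measure only the spread between these libraries, which may be technical.

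HOX genes encode homeodomain transcription factors that give cells their position along the head-to-tail axis of the embryo. The genes lie in the order in which they are used: low-numbered paralog groups are active from the hindbrain and the front of the trunk backwards, and high-numbered groups only towards the tail and in the distal limb. The forebrain and midbrain are formed without HOX expression, and mesenchymal cells keep a HOX pattern of the place they came from. Retinoic acid, WNT and FGF signals open the clusters from the low-numbered end, and Polycomb proteins keep them silent elsewhere. Endocrine cells of the pancreas are not known for high HOX expression.

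The homeobox, the 180 bases that code for the DNA-binding homeodomain, was found in 1 exon of each of the 39 members in the GENCODE release 29 annotation of GRCh38. Shown are the homeoboxes of genes that the results turn on: HOXA2 (chr7:27101251-27101430, minus strand) and HOXB2 (chr17:48543533-48543712, minus strand) from the low-numbered end, and HOXD8 (chr2:176131328-176131507, plus strand) and HOXA10 (chr7:27171947-27172126, minus strand) from the high-numbered end. Each is written 5′ to 3′ on the coding strand, and capitals mark the 18 bases that code for homeodomain positions 48 to 53, in the helix that enters the major groove of DNA.
HOXA2: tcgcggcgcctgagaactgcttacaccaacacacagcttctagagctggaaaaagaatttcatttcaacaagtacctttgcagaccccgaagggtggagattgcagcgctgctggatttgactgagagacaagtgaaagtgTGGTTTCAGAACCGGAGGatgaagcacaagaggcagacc
HOXB2: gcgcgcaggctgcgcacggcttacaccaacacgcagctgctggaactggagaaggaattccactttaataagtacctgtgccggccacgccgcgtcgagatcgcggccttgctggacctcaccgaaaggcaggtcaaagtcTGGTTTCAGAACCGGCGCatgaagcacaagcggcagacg
HOXD8: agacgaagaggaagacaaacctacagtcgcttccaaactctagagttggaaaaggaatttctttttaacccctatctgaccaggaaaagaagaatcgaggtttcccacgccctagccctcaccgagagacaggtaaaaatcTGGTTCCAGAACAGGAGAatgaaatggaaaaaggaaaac
HOXA10: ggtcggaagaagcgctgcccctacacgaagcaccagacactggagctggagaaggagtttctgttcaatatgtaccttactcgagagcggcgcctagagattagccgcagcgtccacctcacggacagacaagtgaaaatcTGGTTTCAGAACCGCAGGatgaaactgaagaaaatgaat
Over these 180 bases HOXA2 and HOXB2, both of paralog group 2, were identical at 138 positions (76.7%), while HOXA2 and HOXA10 of the same cluster were identical at 108 (60%). The capital stretch took 30 different DNA forms over the 39 members. All of them code for the same amino acids, because each homeobox was located by that protein stretch. Counts were made per gene. Taken over whole gene spans, introns included, 22 of the 39 members overlap another member on the same strand. Among them are HOXA3 with HOXA4, HOXA5 and HOXA6, HOXB3 with HOXB4, HOXB5 and HOXB6, and HOXA9 with HOXA10. Overlap of exons alone was not examined. How reads in these overlaps were divided is not given in the sources used here, so values of single overlapping members are uncertain.

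The libraries held 30139788, 31122791 and 30980799 UMIs in 2850, 2576 and 4257 barcodes. A minimum of 1000 genes and a ceiling of 20% for mitochondrial UMIs left 1160, 1027 and 1466 cells, at medians of 15267, 20721 and 9991.5 UMIs. HOX transcripts were rare: the kept cells held 111, 62 and 171 HOX UMIs, in 27, 23 and 74 cells. Between 1 and 4 barcodes were shared by any pair of libraries. Cells were sorted into 4 classes by their own transcripts: collagen-positive (at least 10 UMIs of COL1A1, COL1A2 and COL3A1 together), FABP7-positive (at least 1 UMI of FABP7, a fatty acid binding protein of neural progenitors and glia), GCG-rich (at least 5% of UMIs from the glucagon gene) and TPH1-positive (at least 3 UMIs of TPH1, the enzyme that starts serotonin synthesis). A cell that met several rules, as 28, 15 and 40 cells did, was left out of the main comparison.

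The classes held 103 collagen-positive cells (9, 9 and 85 in replicates 1 to 3), 92 FABP7-positive cells (35, 5 and 52), 2577 GCG-rich cells (830, 848 and 899) and 137 TPH1-positive cells (29, 16 and 92). Replicates 1 and 2 thus add few collagen-positive cells, and replicate 2 few FABP7-positive ones. All 10 mesenchymal markers, such as DCN and PDGFRA, were detected in the collagen-positive cells of every library, with a summed level of 3946 ± 560 CPM (counts per 1000000 UMIs; SD, n = 3) against 5.63 ± 2.38 in GCG-rich cells. Of 10 neural or glial markers, 8 were detected in FABP7-positive cells of every library and 7 in GCG-rich cells of every library, and their summed level was 10075 ± 2380 CPM in FABP7-positive, 9540 ± 2017 in collagen-positive and 1094 ± 138 in GCG-rich cells. VIM alone had a mean of 8671 CPM in FABP7-positive and 9353 CPM in collagen-positive cells, so the sum did not set these classes apart. Gene by gene they differed: 9 of the 10 markers had a mean of at least 20 CPM in FABP7-positive cells, against 4 in collagen-positive cells. Only 4 of the 10 were detected in collagen-positive cells of every library. SOX10, a neural crest and glial factor, was at 0 in every class. The summed level of 8 alpha-cell markers in FABP7-positive cells ran from 7326 to 24730 CPM, against 681 to 866 CPM in collagen-positive cells and 81188 to 88242 CPM in GCG-rich cells, so the 1-UMI rule took in cells rich in alpha-cell RNA. Endothelial markers summed to at most 1.08 CPM in any class. Markers of proliferation summed to 1561 to 2200 CPM in collagen-positive, 897 to 2680 CPM in FABP7-positive and 23.4 to 52.8 CPM in GCG-rich cells, and their part in the HOX differences was not tested.

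HOX transcripts were concentrated in the collagen-positive and FABP7-positive cells. FABP7-positive cells held 77, 14 and 85 HOX UMIs in replicates 1 to 3, or 138, 111 and 127 CPM, a mean of 125 ± 13.6 CPM (SD, n = 3). Collagen-positive cells held 24, 27 and 49 HOX UMIs, or 158, 186 and 53.0 CPM, a mean of 132 ± 69.9 CPM. The exact Poisson 95% intervals of the collagen-positive values, which cover counting error only, were 101 to 235, 122 to 270 and 39.2 to 70.1 CPM, so replicate 3 lay below the others. GCG-rich cells held 2, 9 and 4 HOX UMIs among 43163109 UMIs, or 0.136, 0.484 and 0.405 CPM, a mean of 0.342 ± 0.183 CPM. Every library's FABP7-positive and collagen-positive values lay above every GCG-rich value. Pooled over libraries, the HOX level was 374-fold (95% interval from counts 221 to 683) higher in FABP7-positive and 235-fold (136 to 436) higher in collagen-positive than in GCG-rich cells. Most of the pooled collagen-positive UMIs came from replicate 3, and without it that ratio was 519 (267 to 1103), while it was 155 (85.7 to 305) without replicate 1. The pooled FABP7-positive ratio ran from 272 to 541 with each replicate left out. The order of the HOX-rich classes was not fixed: the mean over libraries was higher in collagen-positive cells, and the pooled level in FABP7-positive cells. TPH1-positive cells held 0, 3 and 1 HOX UMIs, or 0, 14.0 and 1.35 CPM, and the count of 0 in replicate 1 allows up to 8.70 CPM. Their range overlapped the GCG-rich range, while the pooled ratio was 8.86 (4 against 15 UMIs; 95% interval from counts 2.14 to 27.8) and 3.78 (0.0821 to 31.1) without replicate 2. Without replicate 3 it was 16.3 (2.91 to 61.5). The mean of the TPH1-positive level was 5.12 ± 7.73 CPM, and 9.02 ± 14.9 CPM with a mitochondrial limit of 30%, where replicate 2 held 10 HOX UMIs (26.2 CPM).

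**Figure D1:**
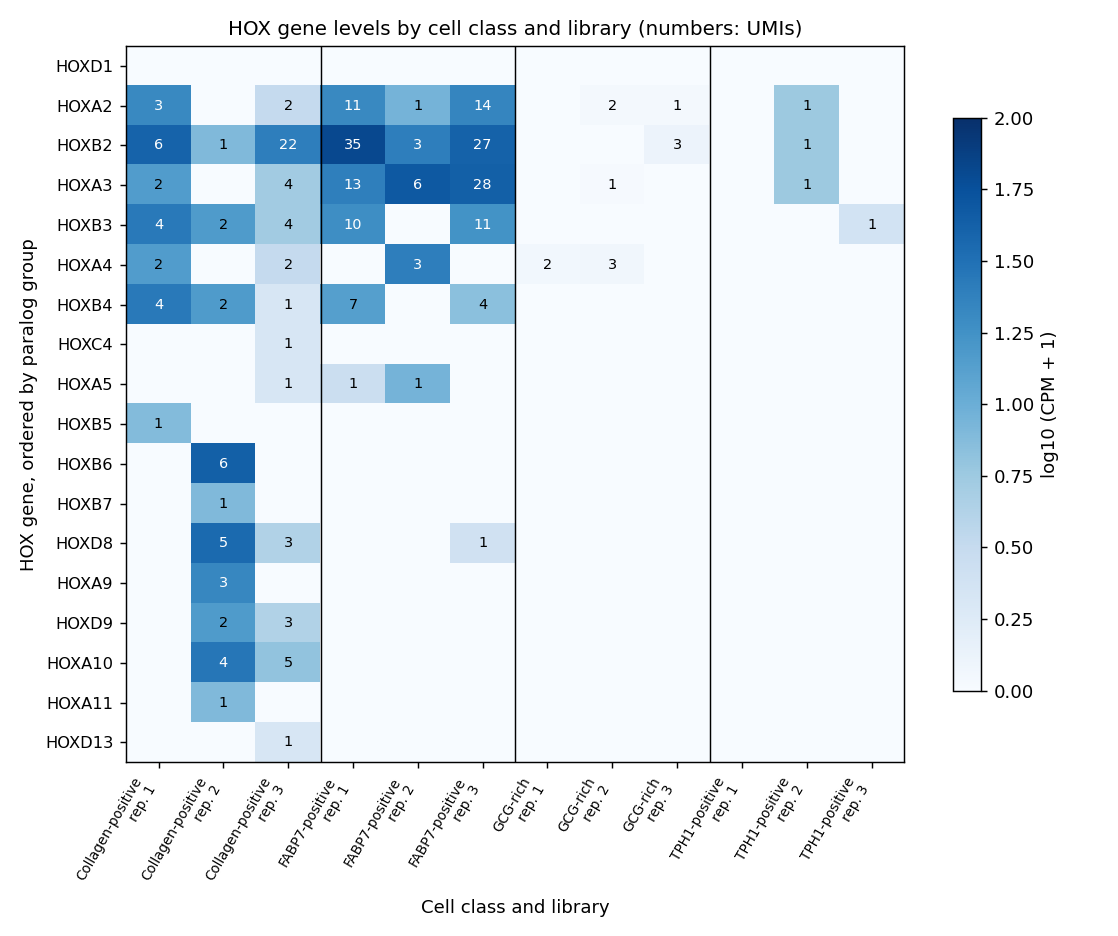
Level of HOX genes with a UMI in kept cells (rows, ordered by paralog group) in each cell class and library (columns); colour is log10 of CPM plus 1 and the printed figure is the UMI count. FABP7-positive columns hold their highest counts in the rows of groups 2 and 3, collagen-positive columns of replicates 2 and 3 reach further down, and the GCG-rich and TPH1-positive columns hold few UMIs.

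The same contrast held for the share of cells with any HOX UMI. In FABP7-positive cells it was 37.1%, 40% and 48.1% (13, 2 and 25 cells), where the 95% binomial intervals (exact, Clopper-Pearson) ran from 21.5 to 55.1%, from 5.27 to 85.3% and from 34.0 to 62.4%. In collagen-positive cells it was 77.8%, 44.4% and 34.1% (7, 4 and 29 cells), with intervals of 40.0 to 97.2%, 13.7 to 78.8% and 24.2 to 45.2%. GCG-rich cells, the largest class, had shares of 0.241%, 0.943% and 0.445% at medians of 16449, 21680 and 10477 UMIs per cell, against 13225, 29148 and 12008 UMIs in FABP7-positive and 16431, 10734 and 9446 UMIs in collagen-positive cells. With each cell thinned to 5000 UMIs, the shares were 34.4%, 50% and 37.0% in FABP7-positive, 66.7%, 44.4% and 20.8% in collagen-positive and 0%, 0.655% and 0.355% in GCG-rich cells. TPH1-positive cells had shares of 0%, 12.5% and 1.09% before thinning. Their intervals of 0 to 11.9%, 1.55 to 38.3% and 0.0275 to 5.91% overlapped those of GCG-rich cells in each library.

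**Figure D2:**
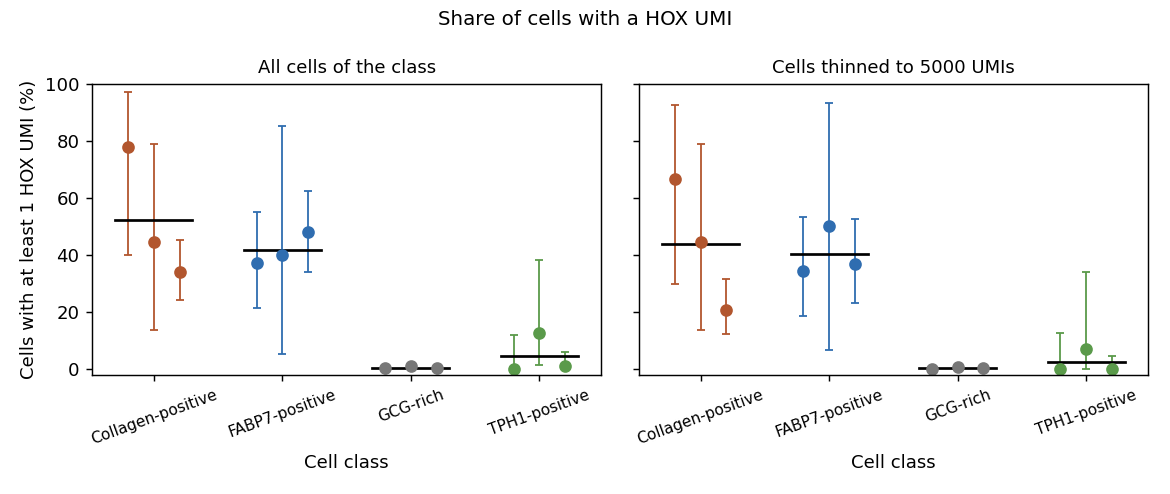
Percent of cells with at least 1 HOX UMI in each class (left, all cells of the class; right, cells thinned to 5000 UMIs); each point is a library, in the order replicate 1 to 3, with its exact Clopper-Pearson 95% interval, and the black line is the mean. The collagen-positive and FABP7-positive points lie between 34.1% and 77.8% on the left, and the GCG-rich points all lie under 1%.

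Within the family, the A and B clusters supplied nearly all counts. In kept cells the HOXB cluster on chromosome 17 gave 181 UMIs over 6 of 10 members, and the HOXA cluster on chromosome 7 gave 144 over 8 of 11. The HOXD cluster on chromosome 2 gave 17 over 4 of 9, and the HOXC cluster on chromosome 12 gave 2 UMIs, all of HOXC4, 1 of 9 members. HOXB2 led with 115 UMIs, followed by HOXA3 with 67, HOXA2 with 40, HOXB3 with 38, HOXB4 with 19 and HOXA4 with 15. The other 13 detected members had 1 to 9 UMIs each, and 20 members had none in kept cells, among them HOXB1, HOXB8, HOXB9, HOXC9 and HOXD10.

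HOXB2, a group 2 gene of the hindbrain at chr17:48540894-48544989, had the highest mean level of any member. In FABP7-positive cells it reached 62.8, 23.8 and 40.3 CPM (35, 3 and 27 UMIs, in 12, 1 and 19 cells), and in collagen-positive cells 39.4, 6.88 and 23.8 CPM (6, 1 and 22 UMIs). GCG-rich cells held 0, 0 and 3 UMIs of it. The ranges of both HOX-rich classes lay above the GCG-rich range. In the replicate 2 sums HOXB2 came from a single cell of each class.

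HOXA3 at chr7:27106184-27152581, a group 3 gene needed for pharyngeal organs such as the thymus and parathyroid, reached 23.3, 47.6 and 41.8 CPM in FABP7-positive cells (13, 6 and 28 UMIs), where all 6 UMIs of replicate 2 lay in 1 cell. Collagen-positive cells held 2, 0 and 4 UMIs of HOXA3, or 13.1, 0 and 4.33 CPM, and GCG-rich cells 0, 1 and 0 UMIs. Each FABP7-positive library was above each collagen-positive library. HOXA2 at chr7:27100354-27102811, which patterns the hindbrain and the pharyngeal arches, reached 19.7, 7.94 and 20.9 CPM in FABP7-positive cells (11, 1 and 14 UMIs). In collagen-positive cells it stood at 19.7, 0 and 2.16 CPM, and in GCG-rich cells at 0, 2 and 1 UMIs. The FABP7-positive and collagen-positive ranges of HOXA2 overlapped.

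These differences were tested on UMI counts summed per library and class, with edgeR's quasi-likelihood test, the library as block and Benjamini-Hochberg adjustment over all genes tested. The 3 comparisons with GCG-rich cells share those cells, and members seen in few cells did not pass edgeR's filter on low counts. A member that passed only through the class where it was high had to differ. GCG-rich cells held 1 UMI of HOXA3, 3 of HOXB2 and 3 of HOXA2, so this holds for every edgeR HOX call against them. The p-values of these calls thus add no support to the counts, and the calls say little about the rest of the family. Between FABP7-positive and GCG-rich cells 3 of 39 members passed the filter and all 3 rose, where 20.5% of the 12877 genes tested were called higher and 20.4% lower. HOXA3 rose by a log2 fold change of 9.62 ± 0.84 (SE; edgeR adjusted p = 4.76e-18), HOXB2 by 8.48 ± 0.75 (adjusted p = 8.07e-18) and HOXA2 by 7.33 ± 0.86 (adjusted p = 4.56e-12), each higher in 3 of 3 libraries. Pooled over libraries, the counts were 47 against 1 for HOXA3 (ratio 1499, 95% interval from counts 256 to 60445), 65 against 3 for HOXB2 (691, 226 to 3437) and 26 against 3 for HOXA2 (276, 84.7 to 1427), so the folds rest on very few UMIs of GCG-rich cells. Without replicate 3, HOXA2 did not pass the filter and the other two were called, and with thinned cells, which leave 2 libraries, HOXB2 alone was called.

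Between collagen-positive and GCG-rich cells 1 of 39 members passed the filter. That gene, HOXB2, rose by 7.34 ± 0.88 (SE; edgeR adjusted p = 6.70e-11; 29 against 3 UMIs, higher in 3 of 3 libraries), where 16.5% of 12944 genes were called higher and 29.3% lower. It passed the filter through the collagen-positive class and had to be higher. The pooled ratio of counts was 341 (95% interval 106 to 1752). HOXB2 no longer passed the filter without replicate 3, which holds 85 of the 103 cells, or with thinned cells. DESeq2, which keeps more of the low genes, called 9 of the 15 members it tested higher and none lower. With it 2092 of 15160 genes were called higher and 1878 lower. Between TPH1-positive and GCG-rich cells no member passed the filter, so none could be called at an adjusted or an unadjusted p by edgeR, and DESeq2 called none of the 3 it tested; 6.46% of 12794 genes were called higher and 7.52% lower there.

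FABP7-positive and collagen-positive cells were also compared directly, over 4789 genes of which 3.42% were called higher and 6.01% lower in FABP7-positive cells. HOXB2, the only member that passed the filter, did not differ beyond the spread (log2 difference 0.58 ± 0.41, SE; edgeR adjusted p = 0.504). No member was called, and none passed at an unadjusted p. HOXA3, with 47 UMIs against 6 in the pooled classes, did not pass the filter. Without that filter it was called higher in FABP7-positive cells at a log2 difference of 2.62 ± 0.69 (edgeR adjusted p = 0.00467), and without replicate 1 at 3.29 ± 0.89 (adjusted p = 0.0142). DESeq2 gave it an adjusted p of 0.360. The pooled count ratios of FABP7-positive to collagen-positive cells were 7.07 (95% interval from counts 3.02 to 20.2) for HOXA3, 4.69 (1.77 to 15.7) for HOXA2 and 2.02 (1.29 to 3.25) for HOXB2, intervals that hold no variation between libraries.

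How far along the clusters the HOX counts reached is described here over pooled counts and without a test across libraries. In FABP7-positive cells, 175 of 176 HOX UMIs belonged to paralog groups 1 to 5, and the remaining UMI was of HOXD8 in replicate 3. In collagen-positive cells, groups 1 to 5 gave 24, 5 and 37 UMIs, while groups 6 to 13 gave 0, 22 and 12. Groups 6 to 13 were absent from GCG-rich and TPH1-positive cells. Over the pooled classes their level was 400-fold higher in collagen-positive than in GCG-rich cells (34 UMIs against a floor of 3). This fold leaves out the counting error of the 34 UMIs. Without replicate 2, whose 3 cells gave 22 of the 34 UMIs, the level was 91.3-fold higher, and without replicate 3 it was 820-fold higher. The pooled ratio of FABP7-positive to collagen-positive cells was 2.39 (1.79 to 3.23) for groups 1 to 5 and 0.0266 (6.53e-04 to 0.158) for groups 6 to 13, both from counts. By library, groups 1 to 5 stood at 138, 111 and 125 CPM in FABP7-positive and at 158, 34.4 and 40.0 CPM in collagen-positive cells, so replicate 1 ran the other way, and without replicate 3 the pooled ratio was 1.37 (0.892 to 2.16). For groups 6 to 13 the ratio was 0.0731 (0.00171 to 0.494) without replicate 2, and without replicate 3 the counts were 0 against 22 UMIs. The share of groups 6 to 13 among the collagen-positive HOX UMIs was 0%, 81.5% and 24.5% in replicates 1 to 3. These UMIs came from 3 of 9 cells in replicate 2 and 6 of 85 in replicate 3. With so few cells, no difference in profile between the libraries is read from these shares. In FABP7-positive cells, group 2 gave 82.6, 31.8 and 61.2 CPM, group 3 gave 41.3, 47.6 and 58.2 CPM, group 4 gave 12.6, 23.8 and 5.97 CPM, and group 5 at most 7.94 CPM.

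**Figure D3:**
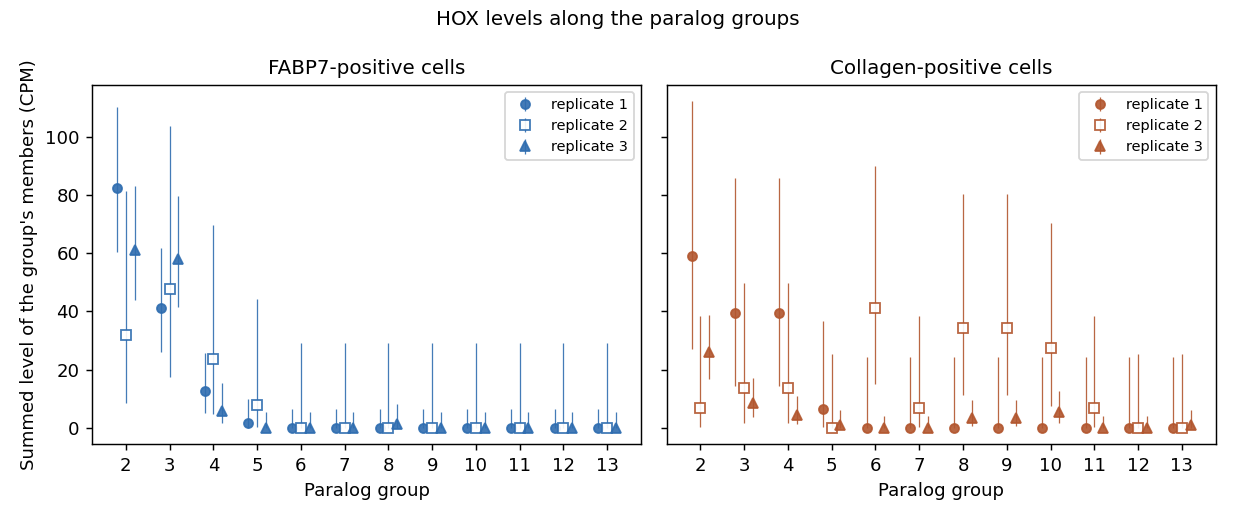
Summed level (CPM) of the members of each paralog group from 2 to 13 in FABP7-positive (left) and collagen-positive cells (right); each marker is a library and each line its exact Poisson 95% interval. FABP7-positive values are highest in groups 2 and 3 and end at group 5 but for 1 UMI in group 8, while collagen-positive values of replicate 2 lie mostly in groups 6 to 10.

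The genes of groups 6 to 13, named here after their values were seen, came from 9 collagen-positive cells, 3 in replicate 2 and 6 in replicate 3. Replicate 1 had none in 9 cells. HOXA10, known from the uterus and the limb, had 0, 4 and 5 UMIs (0, 27.5 and 5.41 CPM), and HOXD8 0, 5 and 3 UMIs (0, 34.4 and 3.25 CPM). HOXD9 had 0, 2 and 3 UMIs, while all 6 UMIs of HOXB6, all 3 of HOXA9 and the only UMIs of HOXB7 and HOXA11 lay in replicate 2. Against a floor of 3 UMIs in GCG-rich cells, the pooled level was 106-fold higher for HOXA10, 94.2-fold for HOXD8, 70.6-fold for HOXB6 and 58.9-fold for HOXD9. These folds leave out the counting error of the collagen-positive UMIs, so they are not lower limits. Most of these counts sat in single cells, so they describe those cells more than the class.

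Some single cells held several members. In replicate 2, a collagen-positive cell of 39422 UMIs held 4 UMIs of HOXA10, 3 of HOXA9, 1 of HOXA11 and 1 of HOXD8. A further cell, of 20442 UMIs, held 6 of HOXB6, 1 of HOXB7 and 1 of HOXB3, and another, of 22341 UMIs, 4 of HOXD8, 2 of HOXD9 and 2 of HOXB4. Their leading genes differed. In replicate 3, a cell of 8831 UMIs held 3 UMIs of HOXA10 and 1 of HOXD13, the most posterior gene seen. In replicate 1, a cell of 17347 UMIs held 4 of HOXB4, 2 of HOXB2 and 1 of HOXB5, and a cell of 16568 UMIs held 2 of HOXA3 and 2 of HOXA4. Of 40 collagen-positive cells with a HOX UMI, 31 had only groups 1 to 5, 7 only groups 6 to 13 and 2 both, both in replicate 2. Most of these cells had few HOX UMIs, so a group not seen in a cell may have been missed.

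FABP7-positive cells with HOX UMIs mostly carried members of groups 2 and 3. Of 40 such cells, 26 held at least 2 members and 13 at least 3, against 14 and 6 of the 40 collagen-positive cells. The highest paralog group in a cell was 2 in 16 of the 40, 3 in 16, 4 in 5, 5 in 2 and 8 in 1. Up to 5 members were seen together: a replicate 1 cell of 5765 UMIs held 4 UMIs of HOXB2, 3 of HOXB4, 2 of HOXA2 and 1 each of HOXA3 and HOXB3, and a replicate 3 cell of 17871 UMIs held the same 5 genes. One replicate 2 cell of 37037 UMIs held 6 of HOXA3, 3 of HOXA4, 1 of HOXA2 and 1 of HOXA5, with no HOXB gene. That cell supplied 11 of the 14 HOX UMIs of its class in replicate 2. In replicates 1 and 3 the richest cell supplied 14.3% and 12.9%.

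**Figure D4:**
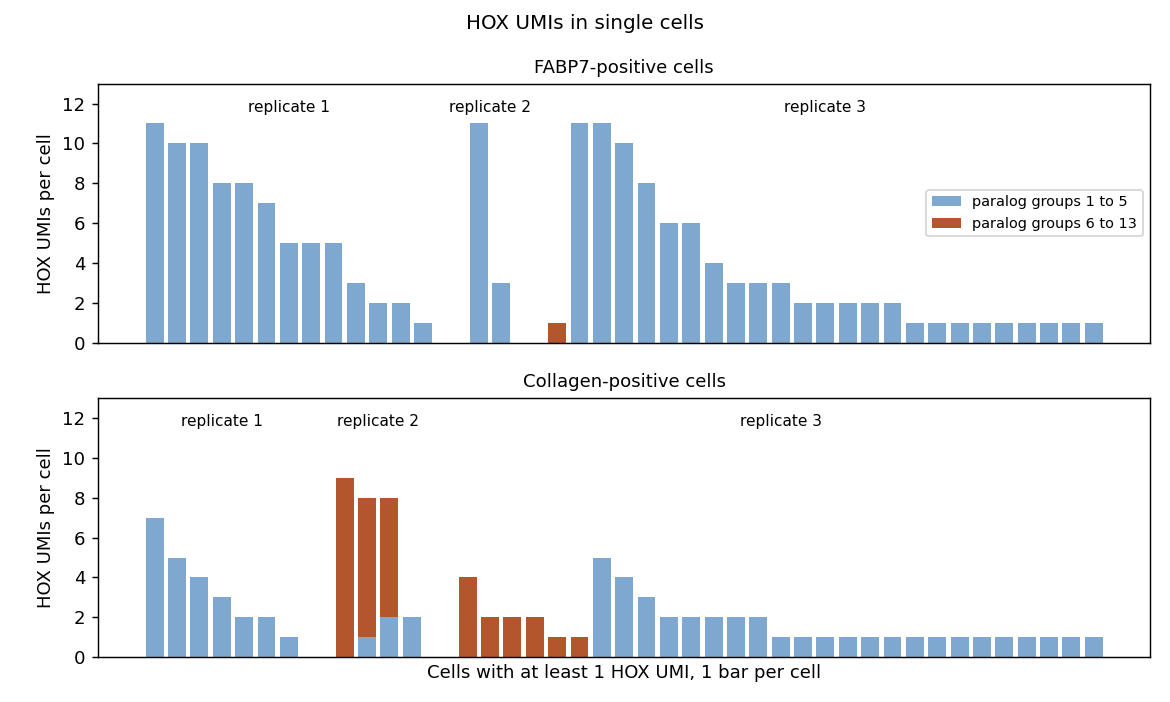
HOX UMIs of each FABP7-positive (top) and collagen-positive cell (bottom) with at least 1, 1 bar per cell, by library, split into paralog groups 1 to 5 (blue) and 6 to 13 (red). FABP7-positive bars are blue but for 1 cell of replicate 3, and red bars stand in 9 collagen-positive cells of replicates 2 and 3.

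HOXB3 and HOXB4, also named after their values were seen, were shared by both classes. HOXB3, a hindbrain and neck gene, stood at 17.9, 0 and 16.4 CPM in FABP7-positive cells (10, 0 and 11 UMIs) and at 26.3, 13.8 and 4.33 CPM in collagen-positive cells (4, 2 and 4 UMIs), with no UMI in GCG-rich cells. Its pooled level was at least 223-fold higher in FABP7-positive and at least 118-fold higher in collagen-positive cells than in GCG-rich cells. HOXB4, active from the lower hindbrain backwards, had 7, 0 and 4 UMIs in FABP7-positive cells and 4, 2 and 1 in collagen-positive cells, where each library's UMIs lay in 1 cell. It too had no UMI in GCG-rich cells. For both genes the ranges of the FABP7-positive and collagen-positive classes overlapped.

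The 15 HOX UMIs of GCG-rich cells were spread thinly. They lay in 14 of 2577 cells, and among them were 5 of HOXA4, 3 of HOXA2, 3 of HOXB2 and 1 of HOXA3. The 2 UMIs of replicate 1 and the 9 of replicate 2 were all of HOXA genes, while replicate 3 held 3 of HOXB2 and 1 of HOXA2. The counts are too few for a comparison of profiles. Barcodes outside the filters held 0.614, 1.30 and 2.05 HOX CPM, above the GCG-rich level of each library, so the part of free RNA in the GCG-rich counts was not tested. TPH1-positive cells held 1 UMI each of HOXA2, HOXA3, HOXB2 and HOXB3.

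FABP7-positive cells were not of 1 kind. Those with 1 or 2 FABP7 UMIs (16, 3 and 11 cells) carried alpha-cell markers at 29427, 56537 and 36213 CPM, and 5 of the 30 had a HOX UMI. Those with at least 3 (19, 2 and 41 cells) carried alpha-cell markers at 1030, 378 and 2701 CPM, and 35 of the 62 had a HOX UMI (47.4%, 100% and 58.5%). Their HOX level was 169, 196 and 145 CPM, against 98.6, 0 and 10.8 CPM in the former. Thus 151 of the 176 HOX UMIs lay in the cells with at least 3 FABP7 UMIs.

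Genes of regional neural identity were set beside HOX UMIs in the FABP7-positive cells, as a description over 92 cells of 3 libraries with no test. Over the whole list of 14 anterior neural genes, 25 of 49 cells with a UMI of any had a HOX UMI, against 15 of 43 others, and its members, picked here after their values were seen, went opposite ways. HOX UMIs were found in 0 of 10 cells with SIX3, 0 of 9 with EMX2, 1 of 14 with LHX2 and 3 of 19 with OTX1. Of the same list, GBX2, a gene of the anterior hindbrain border, went with a HOX UMI in 8 of 8 cells and IRX3 in 12 of 15. For OTX2, a forebrain and midbrain gene that the choroid plexus also expresses, the count was 9 of 16, 7 of them in replicate 3. Of the other list, hindbrain and spinal cord, 37 of 79 cells with a UMI of any of its 14 genes had a HOX UMI, against 3 of 13 others. WNT3A, of the regulators, gave 10 of 13. Of 69 cells with SOX2, a neural progenitor factor, 37 had a HOX UMI, against 3 of the 23 others, and for ZIC1, a dorsal neural factor, the counts were 31 of 51 against 9 of 41. PAX6, made by both neural progenitors and alpha cells, gave 20 of 49 against 20 of 43. Cells with a HOX UMI were deeper, at medians of 17028, 35670.5 and 14298 UMIs against 13078.5, 23192 and 10174 in those without, and the part of depth in these counts was not tested.

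**Figure D5:**
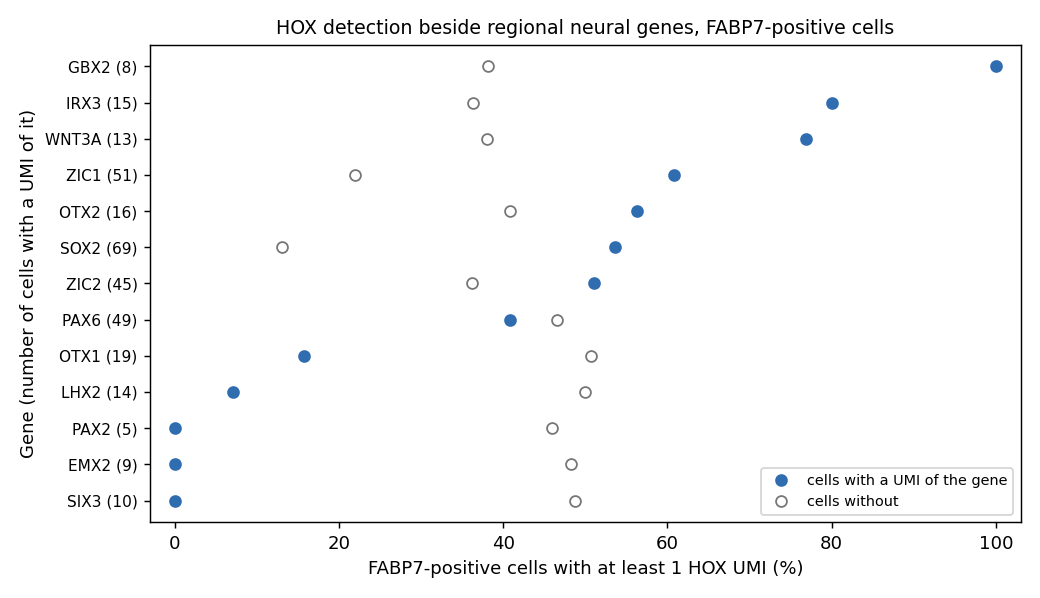
Percent of FABP7-positive cells with at least 1 HOX UMI among cells with (filled) and without (open) a UMI of each regional neural gene, all libraries pooled; the number of cells with the gene stands in brackets. HOX UMIs were found in 8 of 8 cells with GBX2 and in none of the cells with SIX3, EMX2 or PAX2.

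Few noncoding RNAs of the clusters could be tested, and as for the coding genes those that pass through 1 class had to differ. Of 15 such RNAs, 2 passed the filter against GCG-rich cells in FABP7-positive cells and both rose. HOXB-AS1, an antisense RNA of HOXB2 and HOXB3, stood at 35.9, 7.94 and 37.3 CPM there and rose by 6.10 ± 0.68 (SE; edgeR adjusted p = 5.25e-13). HOTAIRM1, a noncoding RNA of the HOXA cluster, stood at 17.9, 15.9 and 20.9 CPM and rose by 4.52 ± 0.68 (adjusted p = 1.90e-08). In collagen-positive cells 1 of the 15 passed the filter: HOXB-AS1, at 26.3, 34.4 and 15.1 CPM, rose by 5.85 ± 0.75 (edgeR adjusted p = 4.80e-10). HOXB-AS1 did not differ between the classes beyond the spread (0.36 ± 0.58, SE; edgeR adjusted p = 0.819). HOTAIRM1 had 16, 18 and 1 UMIs in GCG-rich cells, in sum more than any coding member there, although HOXB2 had 3 in replicate 3. HOXB-AS1 overlaps HOXB2 and HOXB3 on the opposite strand, and because the sources used here do not state that strand was used in counting, their reads may not be told apart. HOTAIR, a HOXC-cluster RNA, had no UMI in any class.

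The TALE cofactors, the PBX, MEIS and PKNOX homeodomain proteins that bind DNA with HOX proteins, held genes that rose and genes that fell. Of 9 genes 7 were tested in each comparison with GCG-rich cells. In FABP7-positive cells 3 rose and 1 fell (median 0.07, against -0.12 over all genes), and in collagen-positive cells 2 rose and 1 fell (median 0.35, against -0.42). MEIS2 rose by 3.52 ± 0.28 (SE; edgeR adjusted p = 2.90e-20) in FABP7-positive and by 3.66 ± 0.29 (adjusted p = 5.67e-18) in collagen-positive cells, under every one of 14 alternatives. MEIS2 also rose in TPH1-positive cells, by 2.60 ± 0.29 (edgeR adjusted p = 5.57e-07), where no HOX gene could be tested. There 2 cofactors rose and 1 fell (median 0.15, against -0.02). MEIS1 changed by 1.05 and 0.95 in FABP7-positive and collagen-positive cells, calls that held under 7 and 5 of 14 alternatives. Between FABP7-positive and collagen-positive cells edgeR called none of the 5 cofactors tested, and 1 passed at an unadjusted p under 0.05. DESeq2 called none of 7.

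Known regulators of the clusters showed changes in both directions. Of 23, 11 were tested in FABP7-positive cells, where 5 rose and 4 fell (median -0.04, against -0.12), and 12 in collagen-positive cells, where 4 rose and 4 fell (median -0.18, against -0.42). EZH2, the Polycomb methyltransferase of dividing cells, rose by 4.44 ± 0.38 (SE; edgeR adjusted p = 1.31e-18) in FABP7-positive and by 3.89 ± 0.48 (adjusted p = 2.19e-10) in collagen-positive cells. EZH1, its counterpart in resting cells, fell by 1.77 and 1.70, calls that held under 11 and 10 of 14 alternatives. These moved beside the proliferation markers given above. RARG, a retinoic acid receptor, rose by 3.69 ± 0.71 in collagen-positive cells (edgeR adjusted p = 1.35e-05), a call lost without replicate 3. ALDH1A1, a retinaldehyde dehydrogenase abundant in the GCG-rich cells, fell by 6.82 ± 0.29 in collagen-positive (edgeR adjusted p = 1.13e-32) and by 2.19 ± 0.21 in FABP7-positive cells (adjusted p = 2.30e-16). WNT3A, a signal of the caudal embryo, was called higher in FABP7-positive cells, with 22 UMIs against 0. It passed the filter through that class alone and had to be higher, and only 10 of 14 alternatives could fit it. In TPH1-positive cells 1 of 10 tested rose, ALDH1A1 by 0.96 ± 0.18 (edgeR adjusted p = 4.26e-04; median of the list 0.13, against -0.02), a call that DESeq2 did not make.

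Other regional genes placed the classes beside their HOX genes. Of 24 genes of gut and splanchnic mesenchyme, 9 were tested in collagen-positive cells, and 6 rose and 2 fell. Genes nearly absent from GCG-rich cells passed the filter through the collagen-positive class alone and had to be higher, so no median is read from this list. PRRX1, a factor of limb and head mesenchyme, rose by 11.49 ± 0.37 (SE; edgeR adjusted p = 1.08e-39) and TWIST1, a mesenchymal factor, by 11.42 ± 0.41 (adjusted p = 5.91e-37). FOXF2, a factor of gut mesenchyme, and BARX1, a factor of stomach mesenchyme, were called higher with 49 and 29 UMIs against 0. GCG-rich cells held 3 UMIs of PRRX1 and 2 of TWIST1, so these fitted folds rest on few counts, as do those of TFAP2A, ZIC1 and ZIC2 below (3, 3 and 2 UMIs). TFAP2A, of neural crest and surface ectoderm, rose by 9.22 ± 0.73 (edgeR adjusted p = 5.34e-18) and S100B, a glial gene, by 2.81 ± 0.66 (adjusted p = 2.72e-04; lost without replicate 3), while ERBB3 fell by 5.12 ± 0.39, in a list where 3 of 9 were tested. In FABP7-positive cells 6 of 14 hindbrain and spinal cord genes were tested: ZIC1 rose by 10.60 ± 0.42 (edgeR adjusted p = 1.58e-42) and ZIC2 by 9.71 ± 0.58 (adjusted p = 1.16e-28), while NKX2-2, EGR2 and PAX6 were among those that fell (median of the list -1.51, against -0.12). The EGR2 call rests on 9 UMIs, with 1 library higher and 2 lower, and held under 9 of 14 alternatives (DESeq2 adjusted p = 0.327). It was lost without replicate 1 and without replicate 3. NKX2-2 and PAX6 are also genes of endocrine cells, the class they were compared with. Of 14 anterior neural genes 2 were tested there and OTX2 was called higher, with 35 UMIs against 0. Like ZIC1 and ZIC2, OTX2 passed the filter through the FABP7-positive class alone and had to be higher. Against collagen-positive cells, 3 of 4 hindbrain and spinal cord genes tested were higher (median 2.31, against -0.01), among them PAX6 by 3.11 ± 0.60 (edgeR adjusted p = 0.0113) and ZIC1 by 2.78 ± 0.57 (adjusted p = 0.0163). The call of ZIC1 held under 12 of 14 alternatives.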

How the data were processed

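For each of 3 libraries the authors deposited a matrix of unnormalized UMI counts. Cell Ranger 4.0.0 and GRCh38 are named in the submitters' processing notes, and the 10x Genomics 3' v3 kit in the labels. Annotation and cell calling: not given in the sources used here. Barcodes were kept from 1000 genes upwards and up to 20% mitochondrial UMIs, and cells meeting exactly 1 of the 4 class rules formed the classes. The FABP7 rule was taken as at least 1 UMI. Doublets were not removed in the main analysis; Scrublet called 18, 11 and 18 cells (1.55%, 1.07% and 1.23%), and leaving them out was an alternative.

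Levels are UMIs per 1000000 UMIs of the class. Counts summed per library and class were fitted with edgeR 4.0.16 in R 4.3.3 (quasi-likelihood, TMM, filterByExpr, library as block because both sums of a pair come from 1 library). The 6 genes of the class rules were left out, and the threshold was a Benjamini-Hochberg adjusted p of 0.05. A library entered a fit where both classes had at least 5 cells. An SE is log2 fold change over the root of F. DESeq2 1.42.0 was an alternative. The code was tested on simulated data. Scanpy 1.11.5 with Python 3.11.15 was used for the rest. Homeoboxes were read from GENCODE release 29 transcripts. A count of 0 is taken to allow 3 counts.

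Members named one by one had a mean of at least 20 CPM in a class or passed a test (HOXB2, HOXA3, HOXA2); from each list, up to 4 genes past the threshold with the largest change could be named. Other HOX genes, HOTAIR, EZH1 in collagen-positive cells, EGR2 and PAX6 in FABP7-positive cells, and the neural genes counted per cell are exceptions to this rule, picked once their values were known. The 39 members and the lists (noncoding RNAs of the clusters, TALE cofactors, HOX regulators, anterior neural, hindbrain and spinal cord, neural crest and glia, gut mesenchyme and endoderm) were chosen with earlier results of these data known. The lists were not tested as sets. Some genes and 1 sequence are not reported here.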

Additional observations from a re-analysis of the deposited data

Results flagged for a closer look

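Barcodes outside the filters also held HOX UMIs. The 6030 such barcodes carried 52 HOX UMIs (7, 13 and 32 in replicates 1 to 3) in 30 barcodes, 20 UMIs in barcodes under 1000 genes and 32 in barcodes over the mitochondrial limit. Of the 52, 48 were of paralog groups 1 to 5 and 4 of groups 6 to 13, and 20 lay in the 154 barcodes that met the collagen or FABP7 rule. HOXC6 (3 UMIs) and HOXC8 (1 UMI) were seen in no kept cell.

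Kept cells that met none of the 4 class rules held 24 HOX UMIs (6, 4 and 14) in 16 of 661 cells, or 2.59, 2.44 and 5.33 CPM. Each library's value lay above its GCG-rich level of 0.136, 0.484 and 0.405 CPM. Both results were singled out because they lie outside the classes compared.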

How the results depend on the processing

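Over the HOX call counts, levels and shares and their alternatives, 183 values stayed near the main value and 21 moved. For levels and shares, near means within 1 SD of the main mean, and for call counts, within a set factor. The SD of the TPH1-positive level (7.73 CPM) exceeded its mean (5.12 CPM). Counts of 0 in both the main and the alternative fit, such as members called lower, are among the 183, so the tally says little about robustness. Members called higher in collagen-positive against GCG-rich cells numbered 9 of 15 tested with DESeq2, where 2092 of 15160 genes were higher. They numbered 12 of 18 without the filter on low counts, where 2614 of 21977 genes were higher. With thinned cells the number was 0, as none passed the filter, and with each replicate left out it was 0 to 1. Members with few or no UMIs in GCG-rich cells had to be higher. Against GCG-rich cells, FABP7-positive cells had 7 of 9 without the filter, where 2705 of 21936 genes were higher. They had 1 with thinned cells and 2 to 4 with each replicate left out, in each case all that passed the filter. FABP7-positive against collagen-positive cells gave 1 (HOXA3) of 3 tested with at least 3 FABP7 UMIs. The same gene was the 1 called of 4 tested with at least 2000 genes and of 18 without the filter. In these fits 199 of 5865, 260 of 7249 and 419 of 17629 genes were higher. With each replicate left out the count was 0 to 1. The HOXB2 difference there was -0.025 (edgeR adjusted p = 0.989) with cells kept in every class they met, against 0.58. The HOX level of FABP7-positive cells, 125 CPM, was 66.4 with cells kept in every class, 170 and 179 with at least 3 and 10 FABP7 UMIs, 169 thinned and 141 without mitochondrial and rule genes in the total. Their share of cells, 41.7%, was 27.4%, 68.6% and 72.3% under the first 3 of these and 47.8% with at least 30 collagen UMIs. The GCG-rich level, 0.342 CPM, was 0.539 with cells kept in every class and 0.673 thinned. With each replicate left out, the collagen-positive, FABP7-positive, GCG-rich and TPH1-positive levels ran over 105 to 172, 119 to 132, 0.271 to 0.445 and 0.675 to 7.68 CPM. The cause of these shifts was not tested.

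Over all genes, calls in collagen-positive cells numbered 5933, or 3356 thinned and 2021 without replicate 3. In FABP7-positive cells they numbered 5262, or 3399 with cells kept in every class, 2890 thinned, 2933 without replicate 1 and 2552 without replicate 3. TPH1-positive cells had 1789, or 1093 with DESeq2, 1170 without replicate 1 and 1142 without replicate 3. FABP7-positive against collagen-positive cells had 452, or 782 with cells kept in every class, 968 without the filter and 63 without replicate 3. Of calls in collagen-positive cells 36.1% were higher, 52.7% with DESeq2, and in FABP7-positive cells 50.1% and 61.2%. The median log2 fold change of all genes was -0.42 and -0.12 with edgeR and 0.31 and 0.36 with DESeq2, which tested more low genes. Both sums of a pair come from 1 library, so the library pairs them. Without the replicate block, HOX calls numbered 1, 3, 0 and 0 as with it. Fits with at least 3 or 10 FABP7 UMIs, 2000 genes or thinned cells held 2 libraries wherever FABP7-positive cells entered, since replicate 2 had under 5. No sign of a called list gene reversed.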

Other observations

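TPH1-positive cells, which carried almost no HOX RNA, differed from GCG-rich cells in genes of the foregut to hindgut endoderm list. Of 10 genes used from foregut to hindgut endoderm, 5 were tested and 4 rose (median log2 fold change 1.62, against -0.02 over all genes). SOX2, a foregut and stomach factor, rose by 6.94 ± 0.40 (SE; edgeR adjusted p = 8.95e-12), PDX1, a pancreas and duodenum factor, by 1.71 ± 0.29 (adjusted p = 1.28e-04) and FOXA2 by 1.35 ± 0.15 (adjusted p = 4.44e-07). In collagen-positive cells 6 of these 10 were tested, 1 rose and 4 fell, and in FABP7-positive cells 5 were tested, 1 rose and 3 fell. SOX2 was the gene that rose in each, and its folds rest on 29 UMIs in GCG-rich cells. It passed the filter through the class where it was high and had to be higher. This holds for TPH1-positive cells too, where SOX2 is among the 4 that rose and in the median.

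Of the 24 gut and splanchnic mesenchyme genes, FABP7-positive cells had 2 of 5 tested higher, MSX2 by 9.49 ± 0.73 (SE; edgeR adjusted p = 1.73e-21) and MSX1 by 8.41 ± 0.42 (adjusted p = 1.06e-34), which also mark the dorsal neural tube, and 2 lower. GCG-rich cells held only 2 UMIs of MSX2 and 10 of MSX1, so both passed the filter through the FABP7-positive class and had to be higher. Against collagen-positive cells, 4 of 6 tested genes of the gut and splanchnic mesenchyme list were lower in FABP7-positive cells and none higher. These values are descriptions beside the HOX genes, and no link between them was tested.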
